A study of Homo sapiens with 6 samples.

Results

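The human mitochondrial chromosome carries 37 genes, and each has a row in the deposited expression table of 65198 rows: 13 messenger RNAs, 2 ribosomal RNAs and 22 transfer RNAs. The members were chosen by name and place alone, as every row whose GENCODE 29 symbol begins with MT- and whose gene lies on chromosome M. They were measured by RNA sequencing in derivatives of MDA-MB-231, an established basal-like breast cancer cell line. The Tet-shHOTAIR derivative (shHOTAIR, n = 3 libraries) carries a tetracycline-inducible short hairpin RNA against the long non-coding RNA HOTAIR. The Tet-shCtrl derivative (shCtrl, n = 3 libraries) carries an inducible hairpin of scrambled sequence. Both were given doxycycline at 1 µg/ml for 96 h, so the antibiotic, which is known to inhibit mitochondrial translation, was present in every library. The labels name 1 derivative per group with 3 independent repeats, so the p-values below compare repeats of 1 derivative with repeats of another. RNA was selected by its poly(A) tail before the libraries were made.

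Mitochondrial genes are transcribed as long precursors from both strands of a small circular DNA. In the reference numbering used here, 28 of the 37 genes lie on the plus strand and 9 on the minus strand. The tRNA genes stand between the mRNA and rRNA genes like punctuation marks. The enzymes that cut out each tRNA also set free the mRNAs and rRNAs beside it. Most of the mRNAs and the rRNAs then receive a tail of A bases, not all of the same length. In several mRNAs it completes the stop codon, whereas a mature tRNA ends in CCA. The libraries were selected for poly(A) tails, so a tRNA row need not follow the amount of the mature tRNA. Which forms of RNA the tRNA rows hold was not tested. How evenly the selection captured the different mRNAs and rRNAs was not tested either. The proteins encoded are core subunits of respiratory chain complexes I, III and IV and of the ATP synthase.

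HOTAIR, the target of the hairpin, was at the edge of detection. Its levels were 0, 0 and 0.0113 FPKM in shHOTAIR libraries 1, 2 and 3, against 0, 0.0128 and 0.0132 FPKM in shCtrl libraries 1, 2 and 3. FPKM are fragment counts divided by transcript length and library depth. The groups overlapped (exact two-sided permutation test, p = 0.4, where 3 against 3 libraries cannot give less than 0.1), so the table does not check the knockdown. All 8 markers fixed for the basal-like line averaged at least 1 FPKM (AXL, CAV1, CD44, EGFR, KRT8, KRT18, LGALS1 and VIM). Whether they mark basal-like cells alone was not tested. By the limma test described below, 5 of them were called higher and 1 lower in shHOTAIR libraries. Of the markers of other cell types, 1 of 5 luminal, 0 of 5 leukocyte, 2 of 5 fibroblast and 1 of 5 endothelial genes did. The fibroblast markers COL1A1 and PDGFRB were the pair detected, and the 5 fibroblast genes summed to between 4.44 and 5.63 FPKM in shHOTAIR libraries and between 2.62 and 3.33 FPKM in shCtrl libraries. Their part in the results was not tested.

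The mitochondrial transcripts that passed the test were all tRNA rows, while most of the others leaned the same way. On log2(FPKM + 1), with limma fitted to all 15934 genes that averaged at least 1 FPKM and p-values adjusted over all of them by the Benjamini-Hochberg method at a threshold of 0.05, 8 of the 37 genes were lower in shHOTAIR libraries and 0 were higher. All 8 were tRNA genes, and all 37 had been tested. Over all genes tested, 12.4% were called lower and 11.5% higher. The 8 were the tRNA genes for valine (MT-TV), leucine UUR (MT-TL1), isoleucine (MT-TI), glutamine (MT-TQ), methionine (MT-TM), tyrosine (MT-TY), aspartate (MT-TD) and threonine (MT-TT). None of the 13 mRNA genes and neither rRNA gene passed, although all 15 had a negative log2 change. The median log2 change was -0.54 over the 37 genes, against -0.03 over all genes tested. Every shHOTAIR library lay below every shCtrl library for 18 of the 37 genes (7 mRNA, 0 rRNA and 11 tRNA genes), while 23.2% of all genes tested did so. The reverse held for 0 of the 37 genes and for 19.9% of all genes tested. In bulk RNA, a change in the number of mitochondrial genomes or transcripts per cell and a change in the rest of the RNA cannot be told apart.

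**Figure D1:**
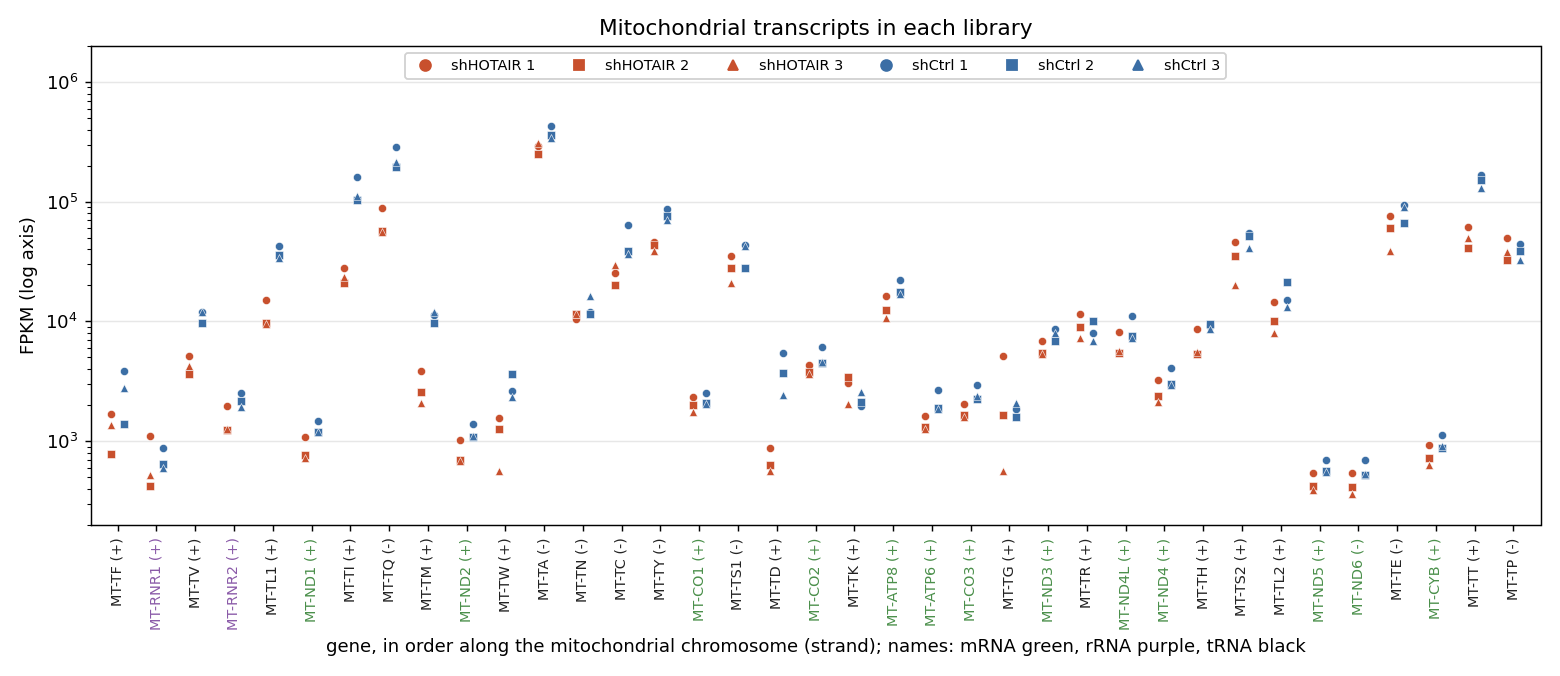
FPKM (log axis) of the 37 mitochondrial genes in gene order, with shHOTAIR libraries left of shCtrl libraries at each gene and the strand in brackets. The shHOTAIR points lie below all shCtrl points for 18 genes, and the widest gaps are at MT-TI and MT-TD.

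The tRNA genes that passed are printed here beside 4 that did not, because neighbours in the genome fall on either side of the call. Sequences are the GENCODE 29 transcripts (GRCh38, chromosome M), written 5′ to 3′ on each gene's own strand as DNA, and capitals mark the anticodon, the triplet that reads the codon. First come those that passed.
MT-TV (valine, chrM:1602-1670, plus strand): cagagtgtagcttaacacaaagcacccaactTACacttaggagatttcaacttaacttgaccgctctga
MT-TL1 (leucine, chrM:3230-3304, plus strand): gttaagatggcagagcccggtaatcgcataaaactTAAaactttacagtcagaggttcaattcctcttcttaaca
MT-TI (isoleucine, chrM:4263-4331, plus strand): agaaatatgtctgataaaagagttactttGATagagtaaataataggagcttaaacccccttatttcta
MT-TQ (glutamine, chrM:4329-4400, minus strand): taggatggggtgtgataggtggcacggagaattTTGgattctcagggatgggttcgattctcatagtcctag
MT-TM (methionine, chrM:4402-4469, plus strand): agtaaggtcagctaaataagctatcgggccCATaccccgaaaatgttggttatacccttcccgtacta
MT-TY (tyrosine, chrM:5826-5891, minus strand): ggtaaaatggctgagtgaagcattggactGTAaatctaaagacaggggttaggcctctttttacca
MT-TD (aspartate, chrM:7518-7585, plus strand): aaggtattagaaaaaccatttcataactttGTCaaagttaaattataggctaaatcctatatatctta
MT-TT (threonine, chrM:15888-15953, plus strand): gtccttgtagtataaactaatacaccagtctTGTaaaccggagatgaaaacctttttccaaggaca
The 4 that did not pass follow: alanine and glutamate tRNAs are among the 5 highest by mean FPKM, and the serine and proline tRNA genes are next to MT-TD and MT-TT on the opposite strand.
MT-TA (alanine, chrM:5587-5655, minus strand): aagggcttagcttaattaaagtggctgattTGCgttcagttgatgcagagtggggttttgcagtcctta
MT-TS1 (serine, chrM:7446-7514, minus strand): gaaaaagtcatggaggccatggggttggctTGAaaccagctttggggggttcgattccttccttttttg
MT-TE (glutamate, chrM:14674-14742, minus strand): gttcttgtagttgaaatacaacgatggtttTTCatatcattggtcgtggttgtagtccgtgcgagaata
MT-TP (proline, chrM:15956-16023, minus strand): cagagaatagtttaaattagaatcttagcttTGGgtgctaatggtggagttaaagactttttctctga

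The levels of these tRNA rows in FPKM are very large for the number of fragments behind them. A tRNA gene is shorter than most sequenced fragments, and dividing by the small length that such a fragment could start in inflates the value. The FPKM steps of genes with a single transcript matched whole fragments when the length was corrected for a normal distribution of fragment lengths with a mean of 200 nt, an SD of 80 nt and a minimum of 46 nt. That match was computed here and is not a stated setting. With it, 69 of 69 tRNA values under 200 fragments lay within 0.01 of a whole fragment, and so did 75.0% of 53979 such values of single-transcript nuclear genes. In shCtrl library 1 a single fragment was worth between 73.8 FPKM (MT-TL1) and 372 FPKM (MT-TS2) in a tRNA row, against 0.0217 FPKM in MT-ND5 and 1.10 FPKM in MT-ATP8. The 22 tRNA rows therefore took 45.6%, 40.1% and 40.2% of the summed FPKM of shHOTAIR libraries and 60.6%, 55.5% and 54.8% of that of shCtrl libraries. They took only 0.0232%, 0.0181% and 0.0191% of the fragments of shHOTAIR libraries and 0.0451%, 0.0352% and 0.0355% of those of shCtrl libraries. The estimated depth, in units of 1000000 fragments, was 43.2, 48.2 and 40.01 in shHOTAIR libraries and 28.7, 35.3 and 34.2 in shCtrl libraries. Comparisons between tRNA and mRNA levels in FPKM thus say little about molecules. In the change of a given gene between groups its length divides out, provided that all libraries share 1 distribution of fragment lengths. Whether fragment lengths differed between the libraries was not tested, and such a difference could weigh more on the short tRNA rows.

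MT-TI, read at isoleucine codons, had the strongest evidence. It measured 28162, 21087 and 23335 FPKM in shHOTAIR libraries, against 160254, 103488 and 110794 FPKM in shCtrl libraries. These were 353, 295 and 271 recovered fragments in shHOTAIR libraries and 1334, 1061 and 1099 in shCtrl libraries. All shHOTAIR libraries lay far below all shCtrl libraries, and MT-TI fell by 2.35 on the log2 scale (SE 0.22, limma adjusted p = 0.0019). MT-TQ, the glutamine tRNA gene on the opposite strand, shares 3 bases with the end of MT-TI. It measured 88685, 56758 and 56165 FPKM in shHOTAIR libraries, against 287932, 195700 and 215157 FPKM in shCtrl libraries, and fell by 1.81 (SE 0.26, limma adjusted p = 0.0068). MT-TM, the methionine tRNA gene used both to start and to extend proteins, begins just after MT-TQ. Its levels of 3846, 2585 and 2076 FPKM in shHOTAIR libraries stood against 11321, 9619 and 12041 FPKM in shCtrl libraries, and it fell by 1.996 (SE 0.24, limma adjusted p = 0.0040). This trio is the tRNA cluster between MT-ND1 and MT-ND2, and all its members were separated between the groups.

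MT-TV and MT-TL1 flank the 16S rRNA gene. MT-TV measured 5186, 3646 and 4219 FPKM in shHOTAIR libraries, against 11893, 9656 and 11997 FPKM in shCtrl libraries, and fell by 1.37 (SE 0.16, limma adjusted p = 0.0039). MT-TL1, the tRNA gene that carries a binding site for a transcription termination factor, measured 15055, 9623 and 9527 FPKM in shHOTAIR libraries, against 43051, 35614 and 34083 FPKM in shCtrl libraries, and fell by 1.75 (SE 0.22, limma adjusted p = 0.0044). The lowest shCtrl value of each was well above the highest shHOTAIR value. MT-TF, the phenylalanine tRNA gene at the head of the same rRNA segment, had a log2 change of -1.02 but did not pass (limma adjusted p = 0.17), with 13 to 38 fragments per library.

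MT-TT, the threonine tRNA gene just after MT-CYB, measured 61037, 41373 and 49381 FPKM in shHOTAIR libraries, against 166556, 151586 and 128909 FPKM in shCtrl libraries. It fell by 1.57 (SE 0.20, limma adjusted p = 0.0045), with no overlap. Its neighbour MT-TP lies on the opposite strand, with 2 bases between them. MT-TP measured 50003, 32897 and 38119 FPKM in shHOTAIR libraries, against 44493, 38798 and 32367 FPKM in shCtrl libraries, and the groups were mixed (log2 change 0.06, SE 0.21). The ratio of MT-TT to MT-TP was 1.22, 1.26 and 1.30 in shHOTAIR libraries, against 3.74, 3.91 and 3.98 in shCtrl libraries. This ratio is taken within each library, so its separation does not rest on how libraries were scaled (log2 difference -1.62, exact two-sided permutation p = 0.1, the smallest possible). This pair, and that of MT-TD and MT-TS1 next, were picked after their values had been seen.

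MT-TD had the largest fall of any member but the thinnest data among those that passed. Its 10, 8 and 6 fragments in shHOTAIR libraries gave 874, 627 and 566 FPKM, against 41, 35 and 22 fragments and 5397, 3741 and 2430 FPKM in shCtrl libraries. It fell by 2.43 (SE 0.33, limma adjusted p = 0.0055), and the groups were separate. MT-TS1, on the opposite strand with 3 bases between them, measured 35023, 28020 and 20924 FPKM in shHOTAIR libraries, against 43367, 27896 and 42644 FPKM in shCtrl libraries, with overlap (log2 change -0.44, SE 0.27). The ratio of MT-TD to MT-TS1 was 0.0250, 0.0224 and 0.0271 in shHOTAIR libraries, against 0.124, 0.134 and 0.0570 in shCtrl libraries (log2 difference -1.99, exact two-sided permutation p = 0.1).

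MT-TY had the smallest fall of the 8. It measured 46176, 43656 and 38382 FPKM in shHOTAIR libraries, against 86155, 76312 and 70960 FPKM in shCtrl libraries, and fell by 0.86 (SE 0.14, limma adjusted p = 0.0093). It belongs to the cluster between MT-ND2 and MT-CO1 with the tRNA genes for tryptophan, alanine, asparagine and cysteine. No other gene of that cluster passed, but MT-TY was not the lowest of them. MT-TW (tryptophan) had a log2 change of -1.44 and MT-TC (cysteine) one of -0.87 (limma adjusted p = 0.057 and 0.071). Both were separated between the groups, while MT-TN (asparagine) overlapped (log2 change -0.23). MT-TA, the alanine tRNA gene, was the highest row of the mitochondrial set in both groups. It measured 293662, 252112 and 309469 FPKM in shHOTAIR libraries, against 431029, 364014 and 338230 FPKM in shCtrl libraries, a separated but smaller difference that did not pass (log2 change -0.40, SE 0.19, limma adjusted p = 0.18). Its unscaled fragments were nearly the same in all 6 libraries: 3681, 3527 and 3594 in shHOTAIR libraries and 3588, 3732 and 3355 in shCtrl libraries, although the libraries differed in depth. MT-TE, the glutamate tRNA gene between MT-ND6 and MT-CYB, measured 75231, 59972 and 38404 FPKM in shHOTAIR libraries, against 93702, 66521 and 89724 FPKM in shCtrl libraries, with overlap (log2 change -0.56, SE 0.29).

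How firmly the 8 calls stood differed. MT-TV, MT-TM and MT-TD passed under all 18 alternative settings tried, and MT-TI and MT-TL1 passed under 17, failing where no filter on low genes was used (limma adjusted p = 0.20 and 0.072). MT-TQ, MT-TY and MT-TT passed under 11, 8 and 11 of the 18. With no filter they failed as well (limma adjusted p = 0.58, 0.60 and 0.58). Each lost the call when any of 5 libraries (shHOTAIR 2 or 3, shCtrl 1, 2 or 3) was left out. Their limma adjusted p then lay between 0.067 and 0.16 for MT-TQ, between 0.098 and 0.18 for MT-TY and between 0.051 and 0.13 for MT-TT. With shHOTAIR library 1 left out, MT-TY lost its call (limma adjusted p = 0.075) while MT-TQ and MT-TT kept theirs (0.035 and 0.032). Under quantile normalization all 3 also lost the call, with log2 changes of -0.13, -0.16 and -0.33 for MT-TQ, MT-TY and MT-TT. Their direction did not change in any of these. The other 14 tRNA genes ranged in log2 change from -1.44 (MT-TW) to 0.32 (MT-TK, lysine). The only values above 0 among the 37 genes were those of MT-TK, MT-TR (arginine, 0.15) and MT-TP, named here after they were seen, and none passed. MT-TG (glycine) was the most variable, with 59, 21 and 6 fragments in shHOTAIR libraries and 14, 15 and 19 in shCtrl libraries.

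**Figure D2:**
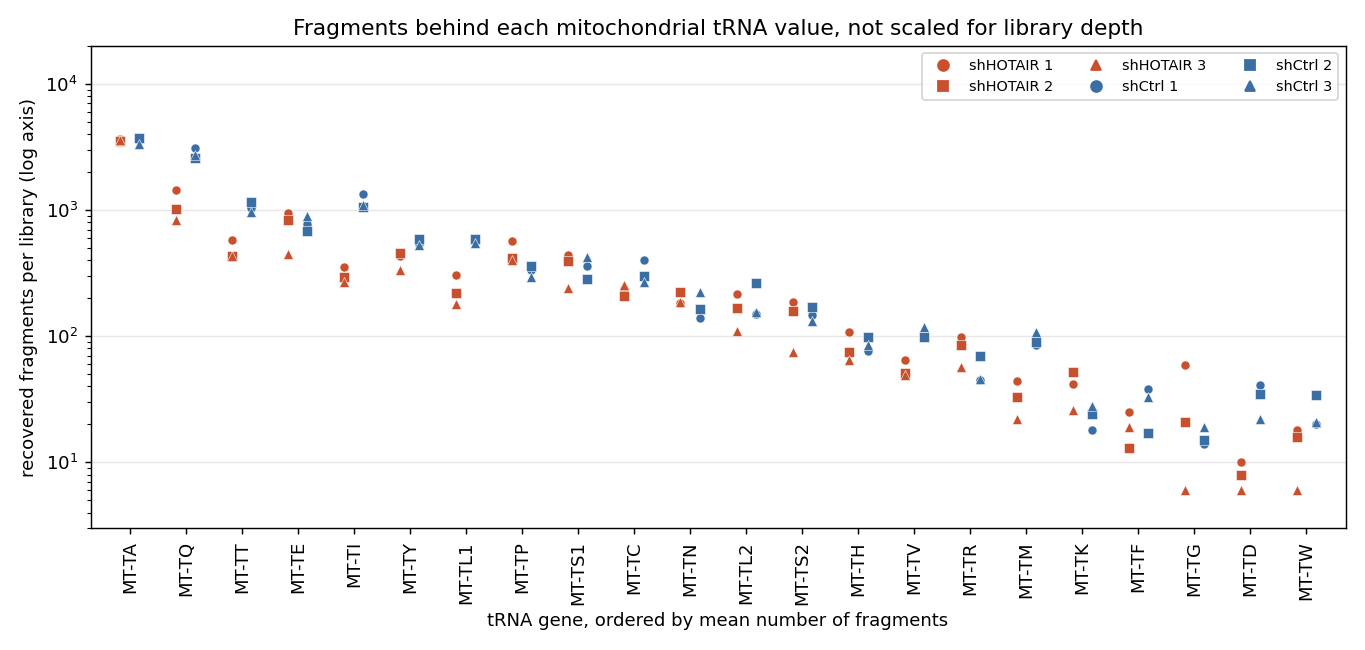
Recovered fragments (log axis, not scaled for depth) behind each of the 22 tRNA values, with shHOTAIR libraries left of shCtrl libraries. MT-TA has nearly equal fragments in all 6 libraries, MT-TQ and MT-TI are lower in every shHOTAIR library, and 6 genes have fewer than 30 fragments in at least 1 library.

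The 13 mRNAs were all lower on average in shHOTAIR libraries, but none by enough to pass. Their log2 changes ran from -0.60 to -0.12 with a median of -0.42, and 7 of the 13 had an unadjusted p under 0.05. Over all 15934 genes tested, 5904 had one, 3180 of them lower in shHOTAIR libraries. The same library led each group throughout: shHOTAIR library 1 was the highest of its group for 13 of 13 mRNAs, and shCtrl library 1 was the highest of its group for 13 of 13. The summed mRNA level was 48975, 37484 and 34774 FPKM in shHOTAIR libraries, against 65669, 49883 and 50407 FPKM in shCtrl libraries. The highest shHOTAIR library was just below the lowest shCtrl library (log2 difference -0.46, exact two-sided permutation p = 0.1). The shortest mRNA genes, MT-ATP8, MT-ND4L and MT-ND3, had the highest FPKM and weigh most on this sum. MT-ATP8 alone gave 16215 FPKM of it in shHOTAIR library 1 and 22168 FPKM in shCtrl library 1. Counted as fragments per 1000000, the mRNA sum was 16833, 13238 and 12187 in shHOTAIR libraries, against 21744, 16647 and 16784 in shCtrl libraries. There shHOTAIR library 1 lay above shCtrl libraries 2 and 3 (exact two-sided permutation p = 0.3), so the separation held in FPKM only. With shHOTAIR library 1 left out, MT-ND1, MT-ND2 and MT-ND5 passed (limma adjusted p = 0.020, 0.027 and 0.045), and so did the 16S rRNA gene and MT-TH.

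The mRNAs for 7 subunits of complex I, which takes electrons from NADH, are among them. MT-ND1 measured 1090, 765 and 720 FPKM in shHOTAIR libraries, against 1465, 1186 and 1201 FPKM in shCtrl libraries. MT-ND2 measured 1018, 703 and 680 FPKM in shHOTAIR libraries, against 1404, 1090 and 1105 FPKM in shCtrl libraries. Both were separated between groups and shared the largest differences of the complex, each with a log2 change of -0.60 (SE 0.18 and 0.19; limma adjusted p = 0.068 and 0.076). MT-ND3 measured 6884, 5470 and 5325 FPKM in shHOTAIR libraries, against 8676, 6856 and 8028 FPKM in shCtrl libraries. MT-ND4L, whose frame runs into MT-ND4, measured 8199, 5483 and 5645 FPKM in shHOTAIR libraries, against 11113, 7494 and 7210 FPKM in shCtrl libraries. For both, shHOTAIR library 1 lay within the range of the shCtrl libraries. MT-ND4 measured 3221, 2371 and 2119 FPKM in shHOTAIR libraries, against 4058, 2993 and 2958 FPKM in shCtrl libraries. MT-ND5 measured 543, 419 and 388 FPKM in shHOTAIR libraries, against 692, 565 and 549 FPKM in shCtrl libraries. MT-ND5 was separated by a small margin and MT-ND4 was not. MT-ND6, the one mRNA on the minus strand, measured 538, 416 and 364 FPKM in shHOTAIR libraries, against 693, 525 and 530 FPKM in shCtrl libraries, with overlap (log2 change -0.41, SE 0.18, limma adjusted p = 0.16). The 7 log2 changes of the complex lay between -0.60 and -0.38.

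MT-CYB, cytochrome b of complex III, measured 922, 720 and 629 FPKM in shHOTAIR libraries, against 1126, 876 and 903 FPKM in shCtrl libraries (log2 change -0.36, SE 0.17). The groups overlapped. Complex IV, cytochrome c oxidase, has 3 mitochondrial subunits. MT-CO1 measured 2341, 2016 and 1755 FPKM in shHOTAIR libraries, against 2504, 2099 and 2038 FPKM in shCtrl libraries. It differed least of all mRNAs, with overlap (log2 change -0.12, SE 0.14, limma adjusted p = 0.55). MT-CO2 measured 4346, 3797 and 3607 FPKM in shHOTAIR libraries, against 6148, 4494 and 4563 FPKM in shCtrl libraries. MT-CO3 measured 2038, 1641 and 1603 FPKM in shHOTAIR libraries, against 2959, 2230 and 2385 FPKM in shCtrl libraries. Both were separated, and MT-CO3 came nearest to the threshold of any mRNA (log2 change -0.52, SE 0.15, limma adjusted p = 0.056). It passed when only genes averaging at least 5 FPKM were tested, and with limma's robust option.

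MT-ATP8 and MT-ATP6, subunits of the ATP synthase, are read from 1 transcript whose frames overlap by 46 bases. The shared stretch is shown because reads from it cannot be given to either gene alone, and the start codon of MT-ATP6 is in capitals.
MT-ATP8 and MT-ATP6 overlap (chrM:8527-8572, plus strand): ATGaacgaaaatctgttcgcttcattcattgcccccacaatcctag
MT-ATP8 measured 16215, 12365 and 10683 FPKM in shHOTAIR libraries, against 22168, 17580 and 17068 FPKM in shCtrl libraries. MT-ATP6 measured 1622, 1318 and 1255 FPKM in shHOTAIR libraries, against 2661, 1893 and 1869 FPKM in shCtrl libraries. Both were separated, with log2 changes of -0.54 (SE 0.19) and -0.60 (SE 0.18) that did not pass (limma adjusted p = 0.10 and 0.060). MT-ATP8 is only 207 bases long, close to the fragment length used above, which raises its FPKM relative to the longer mRNAs. By their last bases, 6 of the 13 mRNAs lack a full stop codon and need the poly(A) tail to complete it (MT-ND1, MT-ND2, MT-CO3, MT-ND3, MT-ND4 and MT-CYB). Their median log2 change was -0.47, beside -0.41 for the 7 with a full stop codon.

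The rRNA genes encode the RNA of the small (12S, MT-RNR1) and large (16S, MT-RNR2) subunits of the mitochondrial ribosome. MT-RNR1 measured 1096, 425 and 520 FPKM in shHOTAIR libraries, against 872, 644 and 601 FPKM in shCtrl libraries. MT-RNR2 measured 1950, 1234 and 1266 FPKM in shHOTAIR libraries, against 2509, 2148 and 1935 FPKM in shCtrl libraries. In both, shHOTAIR library 1 stood above the other libraries of its group, and for MT-RNR1 it was the highest of all 6. Neither passed (log2 change -0.16, SE 0.38, and -0.59, SE 0.21; limma adjusted p = 0.79 and 0.097). Without shHOTAIR library 1, MT-RNR2 passed with a log2 change of -0.80 (limma adjusted p = 0.022). The 12S to 16S ratio was 0.562, 0.344 and 0.411 in shHOTAIR libraries, against 0.348, 0.2999 and 0.310 in shCtrl libraries, with overlap (exact two-sided permutation p = 0.2).

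**Figure D3:**
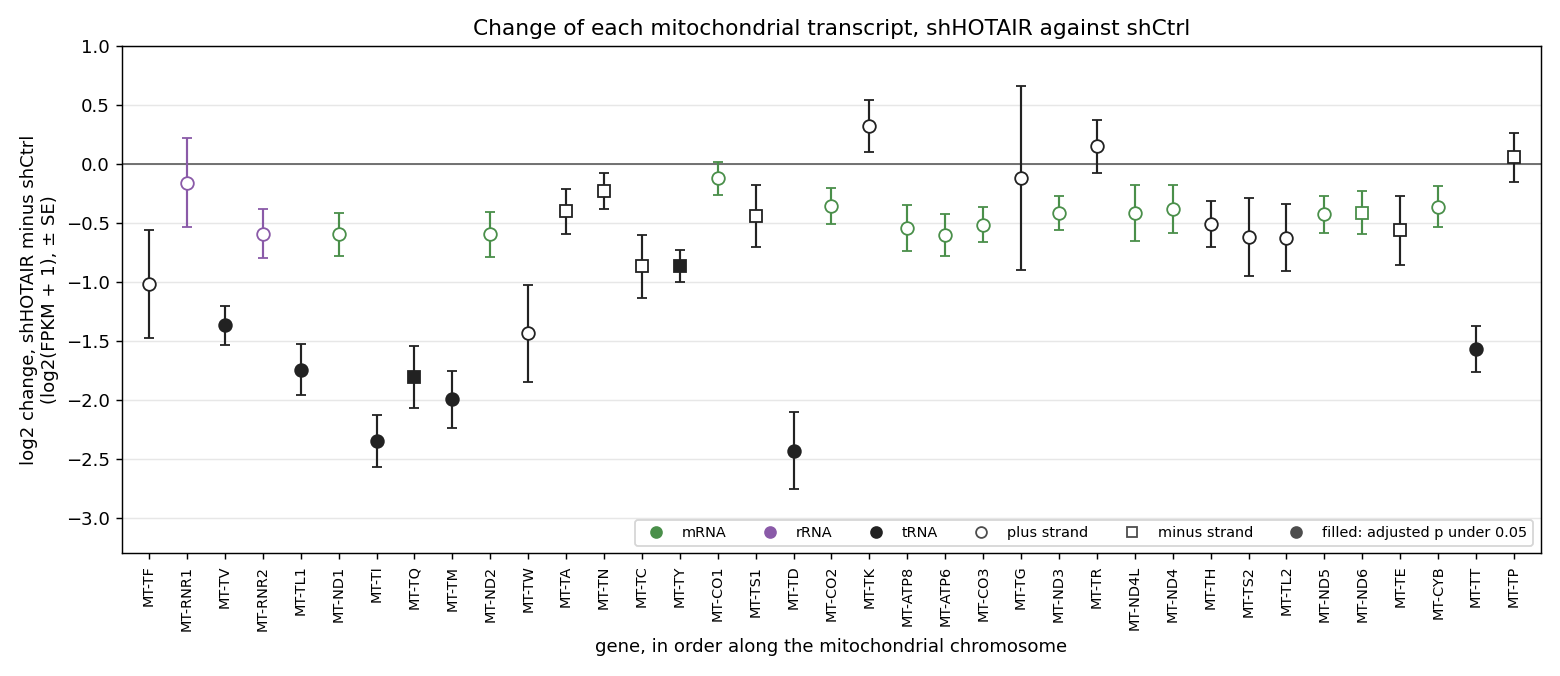
Log2 change (shHOTAIR minus shCtrl, log2(FPKM + 1), ± SE from limma, n = 3 libraries each) of the 37 genes in gene order; circles are plus-strand and squares minus-strand genes, filled where the adjusted p was under 0.05. The mRNAs lie between -0.60 and -0.12, and the filled points are 8 tRNA genes.

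Set against the mRNAs of the same library, the summed level of the tRNA rows was lower in shHOTAIR libraries, though not every row was. After poly(A) selection these rows do not give the amount of mature tRNA. The summed tRNA level was 831059, 650381 and 676724 FPKM in shHOTAIR libraries, against 1558382, 1235007 and 1221583 FPKM in shCtrl libraries (log2 difference -0.89, exact two-sided permutation p = 0.1). The ratio of summed tRNA to summed mRNA level was 17.0, 17.4 and 19.5 in shHOTAIR libraries, against 23.7, 24.8 and 24.2 in shCtrl libraries. The groups were separate, with a log2 difference of -0.44 (exact two-sided permutation p = 0.1). Counted in fragments, the same ratio was 0.0138, 0.0137 and 0.0156 in shHOTAIR libraries, against 0.0207, 0.0212 and 0.0211 in shCtrl libraries. The rRNA to mRNA ratio was 0.0622, 0.0443 and 0.0514 in shHOTAIR libraries, against 0.0515, 0.0560 and 0.0503 in shCtrl libraries, with overlap (exact two-sided permutation p = 0.9). When each library was rescaled to its summed mitochondrial mRNA level, an alternative chosen after the data had been seen, 7 of the 8 tRNA genes were still called lower and MT-TY was not (log2 change -0.41, limma adjusted p = 0.086). On the same scale 7 of the 22 tRNA genes had a log2 change above 0, among them MT-TA at 0.05. On that scale 0 of the 37 genes were called higher, and over all genes tested 0.728% were called lower and 7.71% higher.

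By strand, 6 of 14 plus-strand tRNA genes and 2 of 8 minus-strand tRNA genes were called lower, with median log2 changes of -1.19 and -0.50. The summed minus-strand tRNA level relative to the plus-strand one was 3.02, 3.47 and 4.03 in shHOTAIR libraries, against 2.14, 1.97 and 2.22 in shCtrl libraries. All shHOTAIR libraries were higher (log2 difference 0.73, exact two-sided permutation p = 0.1). The plus-strand genes did not change alike. MT-TK, MT-TG, MT-TR, MT-TH, MT-TS2 and MT-TL2 had log2 changes from -0.63 to 0.32, and none was called. Strand and position are unevenly mixed among the tRNA genes, and their parts in this difference were not tested. MT-TA alone made up 39.6% of the summed tRNA level in shHOTAIR libraries and 28.2% in shCtrl libraries. Among mRNAs no such strand difference was seen, but only MT-ND6 lies on the minus strand. The ratio of MT-ND6 to the other mRNAs was 0.0111, 0.0112 and 0.0106 in shHOTAIR libraries, against 0.0107, 0.0106 and 0.0106 in shCtrl libraries (log2 difference 0.04, exact two-sided permutation p = 0.4). How well poly(A) selection captured MT-ND6 beside the other mRNAs was not tested. No source used here gives the strand setting behind the deposited values, so reads from a gene and from its antisense transcript cannot be told apart. Of the 9 genes that overlap another mitochondrial gene, MT-TI and MT-TQ do so on opposite strands.

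By position, the calls were gathered in the first part of the numbering. Of the 6 tRNA genes from MT-TF to MT-TM, 5 were called lower (median log2 change -1.78). Of the 5 from MT-TW to MT-TY, 1 was (median -0.86). Of the 11 from MT-TS1 to MT-TP, 2 were (median -0.51), and these are MT-TD and MT-TT. The 7 tRNA genes from MT-TK to MT-TE had 0 calls, but this stretch is the one between MT-TD and MT-TT, so its bounds fix that count. The bounds of these stretches were not planned before the values were seen. Over the 22 tRNA genes the log2 change had a Spearman correlation of 0.50 with the start position, and of -0.17 with GC content, -0.05 with length and -0.06 with the mean number of fragments. These are descriptions over genes of shared precursors, which are not independent. The mRNAs showed a Spearman correlation of 0.34 with the start position over 13 genes.

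**Figure D4:**
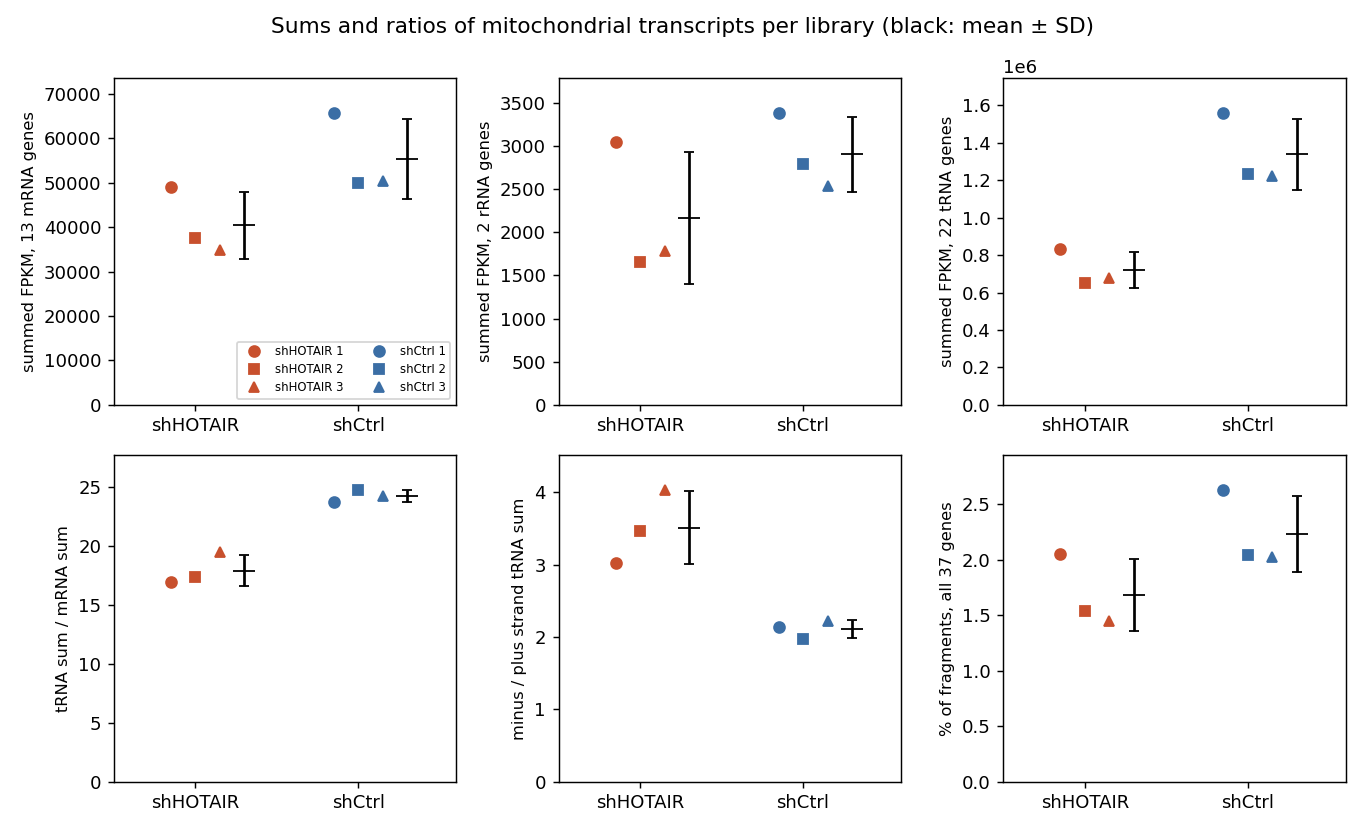
Summed FPKM of the mRNA, rRNA and tRNA genes, the tRNA to mRNA and the minus- to plus-strand tRNA ratios, and the share of all fragments from the 37 genes, per library; black bars are the mean ± SD of 3 libraries. In FPKM the mRNA and tRNA sums and both ratios are separate between shHOTAIR and shCtrl, while the rRNA sums and the shares overlap; in fragments the mRNA sums overlap too.

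As a share of all fragments, the 37 genes made up 2.05%, 1.54% and 1.45% of shHOTAIR libraries, against 2.62%, 2.04% and 2.02% of shCtrl libraries. shHOTAIR library 1 lay just above the lower shCtrl libraries (log2 difference -0.41, exact two-sided permutation p = 0.3). The share computed from FPKM times gene length with the tRNA rows included was 8.72%, 6.73% and 6.78% in shHOTAIR libraries, against 14.6%, 11.5% and 11.4% in shCtrl libraries. Without the tRNA rows it was 3.04%, 2.28% and 2.14% in shHOTAIR libraries, against 3.92%, 3.02% and 3.01% in shCtrl libraries. The first of these is set by the inflated tRNA values. The summed FPKM of all rows was 1820768, 1620978 and 1681609 in shHOTAIR libraries, against 2569505, 2224150 and 2229751 in shCtrl libraries. With the mitochondrial rows left out, the sums were between 931454 and 968323 in shHOTAIR libraries and between 936467 and 955226 in shCtrl libraries. Dividing the table by its own column sums, as TPM does, would thus carry the tRNA difference into every gene, and it moved the median log2 change of all genes tested to 0.37. On the TPM scale the same 8 tRNA genes were called lower, and MT-TK and MT-TP were called higher. Over all 15934 genes tested, 6253 were called higher and 399 lower on that scale. There 8 of the 13 mRNAs had a log2 change above 0, with none called.

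Copies of mitochondrial sequence in the nuclear genome can share reads with these genes. Of 400 rows for such copies, 112 were above 0 in some library and 15 were tested. Among those 15, 0 were called higher and 1 lower, with a median log2 change of -0.08. The highest, MTATP6P1 on chromosome 1, measured 113.8, 81.8 and 72.3 FPKM in shHOTAIR libraries, against 151.7, 117.7 and 120.2 FPKM in shCtrl libraries (log2 change -0.55, limma adjusted p = 0.097). MTND2P28 in the same segment had a log2 change of -0.61 and MTCO1P12 one of -0.16, near the values of MT-ND2 and MT-CO1. Of the 15 tested copies, 9 had a log2 change below 0, and MTATP8P1 was among those above 0 (log2 change 1.17, SE 0.58, limma adjusted p = 0.20). The copy that passed was MTRNR2L12 on chromosome 3, with 4.88, 4.52 and 4.80 FPKM in shHOTAIR libraries, against 6.57, 7.41 and 6.17 FPKM in shCtrl libraries (log2 change -0.43, limma adjusted p = 0.019). How reads that map to several places were assigned is likewise not stated.

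Nuclear genes for mitochondrial gene expression, upkeep and the respiratory chain were called in both directions. Of 243 such genes tested in 16 lists, 22 were called higher and 33 (13.6%) lower. Over all genes tested the shares were 11.5% higher and 12.4% lower. Of the 11574 nuclear protein-coding genes tested, 1595 were called higher and 1732 lower. The lists stood near these shares or below them. The lists were drawn up from general knowledge with earlier results of these data known. Chromosome 10 weighs on the lower calls: 67.3% of its 443 tested protein-coding genes were called lower (median log2 change -0.52), and so were 10 of the 12 list genes that lie on it. Off chromosome 10, 22 of 231 list genes were higher and 23 lower, with a median log2 change of -0.10. The part of chromosome position in these calls was not tested. Rescaling to TPM or to the mitochondrial mRNA sum moved the median log2 change of all genes tested to 0.37. Under both, the signs of TFAM, TFB2M, PUS1, GARS, AARS2, COX5A and ATP5F1A named below turned positive. Of the lower calls named below, those of PRIMPOL, TK2, MYC, PPRC1 and ATP5F1C held on the TPM scale, and all 5 were lost on the mitochondrial mRNA scale.

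For transcription, 10 genes were tested, of which 1 was higher and 2 lower. MTERF4, of the mitochondrial termination factor family, rose to 13.3, 13.01 and 12.4 FPKM in shHOTAIR libraries, against 6.90, 8.63 and 8.06 FPKM in shCtrl libraries (log2 change 0.65, limma adjusted p = 0.0059), and its 50 nearest genes had a median of 0.34. The promoter-binding factor TFAM, on chromosome 10, measured 241, 257 and 247 FPKM in shHOTAIR libraries, against 273, 317 and 306 FPKM in shCtrl libraries (log2 change -0.27, limma adjusted p = 0.047), a call lost under 13 of the 18 alternatives. TFB2M, the factor that opens the promoter, had a log2 change of -0.28 (limma adjusted p = 0.012). The RNA polymerase POLRMT, named for its role, did not pass (log2 change -0.18, limma adjusted p = 0.21). For replication and packaging of the DNA, 4 of 18 genes were higher and 3 lower: the polymerase POLG had a log2 change of 0.54, beside a median of 0.36 for its 50 nearest genes, and the helicase TWNK, on chromosome 10, one of -0.71. PRIMPOL (-1.25) and the thymidine kinase TK2 (-0.80) were also lower.

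For the cutting of tRNAs from the precursors, 3 of 13 genes were higher and 0 lower. TRMT10C, a subunit of the RNase P that cuts before each tRNA, had a log2 change of 0.63 (limma adjusted p = 0.0019), in a stretch of chromosome 3 whose 50 nearest tested genes had a median of 0.48. FASTKD5, needed for cuts that no tRNA marks, had a log2 change of 0.61, and its 50 nearest genes a median of 0.40. FASTKD2 had a log2 change of 0.33, a call lost under 9 of the 18 alternatives, each of the 6 single libraries left out included. For mRNA stability and decay, 1 of 11 genes was higher and 2 lower: the poly(A) polymerase MTPAP (-0.68) and the helicase SUPV3L1 (-0.61), both on chromosome 10, were lower, and the RNA granule protein GRSF1 (0.33) was higher, beside a median of 0.31 for its 50 nearest genes. For tRNA modification and CCA addition, 2 of 28 were higher (OSGEPL1 at 0.67 and NSUN3 at 0.26; the NSUN3 call was lost under 12 of the 18 alternatives) and 2 lower (PUS1 at -0.27 and METTL8 at -0.52). OSGEPL1 and NSUN3 both modify mitochondrial tRNA bases. Single libraries left out were among the settings that removed the calls of PUS1 (6 of the 18 alternatives), METTL8 (7) and GRSF1 (4).

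For the enzymes that charge tRNAs, 1 of 19 was higher and 2 lower. CARS2, which charges the cysteine tRNA, had a log2 change of 0.67, while its 50 nearest genes on chromosome 13 had a median of 0.72. GARS, which serves cytosol and mitochondria, had one of -0.43, and AARS2, which charges the tRNA of MT-TA, one of -0.31. The AARS2 call was lost under 11 of the 18 alternatives, each library left out included, and its 50 nearest genes had a median of -0.43. The counts were 3 higher and 1 lower of 23 for rRNA modification and ribosome assembly, and 1 higher and 3 lower of 16 for translation factors and insertion. They were 1 higher and 3 lower of 16 for mass and import, and 0 higher and 5 lower of 12 for the mitochondrial unfolded protein response. Of the 9 biogenesis regulators tested, 0 were higher and 4 lower. These were MYC (-0.86), PPRC1 (-0.66), PPARGC1B (-0.46) and TFAM, with PPRC1 and TFAM on chromosome 10, and the PPARGC1B call was lost under 8 of the 18 alternatives. Of the 77 nuclear respiratory chain subunits, 7 were higher and 7 lower. Complex I had 7 of 37 higher and 4 lower, and complexes II and III had 0 of 4 and 0 of 9 in either direction. Complex IV had 1 of 11 lower, COX5A at -0.18. That call was lost under 16 of the 18 alternatives, and on the TPM scale COX5A was called higher instead. Complex V had 2 of 16 lower (ATP5F1C at -0.79, on chromosome 10, and ATP5F1A at -0.38, a call lost under 9 of the 18 alternatives).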

How the data were processed

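The expression values are FPKM per gene, deposited by the authors in 1 table of 65198 rows for 6 libraries. The submitters' processing notes name the build GRCh38 and the tools DESeq and TopHat2 2.0.13, with no role. No source used here states the program that made the FPKM, the annotation, the strand setting or any filter. Per the labels' protocols, an NEBNext module selected poly(A) RNA, and a PrepX kit on an Apollo 324 instrument turned it into libraries. Gene classes, positions, strands and sequences came from GENCODE 29, whose gene IDs matched 56807 rows. No library repeated another: at most 3.29% of the compared values were equal between any pair.

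limma 3.58.1 (R 4.3.3, trend) was fitted to log2(FPKM + 1) of the 15934 genes averaging at least 1 FPKM, with Benjamini-Hochberg adjustment over all of them and a threshold of 0.05; log2 changes are on the log2(FPKM + 1) scale. The fit was tested on simulated data. Sums and ratios were compared by exact two-sided permutation tests. Fragments were recovered from the FPKM as the text describes, and they bear on counting error only. The alternatives were other pseudocounts, filters, scalings and limma options, the replicate number as a block, and each library left out. Further ones were added after the data had been seen: rescaling to the mitochondrial mRNA sum, and sums in fragments. Named with values per library are the mRNA and rRNA genes, the tRNA genes that passed and those at the 5 highest mean levels. MT-TP and MT-TS1 were added after their values had been seen. From the lists of nuclear genes, up to 4 with the smallest p were named, most by log2 change only. Some lists are given by counts alone, and POLRMT was named for its role. Of nuclear copies, up to 6 were named. The members, lists and markers were chosen with earlier results of these data known. Python 3.11.15 was used for the rest.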

Additional observations from a re-analysis of the deposited data

How the results depend on the processing

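Under the 18 alternatives, between 3 and 16 of the 37 mitochondrial genes were called lower, and none was called higher except on the TPM scale, where MT-TK and MT-TP made 2. No filter on low values left 3 lower calls and quantile normalization 5, all tRNA genes. Testing only genes averaging at least 5 FPKM gave 2 mRNA calls, and limma's robust option gave 1. Leaving out 1 library gave 5 to 12 mitochondrial calls (5 to 8 tRNA, 0 to 3 mRNA and 0 to 1 rRNA genes) and 1224 to 1605 lower calls over all genes. With the replicate block there were 16 lower calls, 7 of them mRNAs, and 825 higher and 915 lower genes in all. Over all genes tested, the deviations of same-numbered libraries had correlations of -0.0221, 0.00696 and -0.0307. Over the mitochondrial genes they were -0.110, 0.420 and -0.138. These values do not settle whether the replicate numbers pair the libraries. Over all genes, TPM gave 6253 higher and 399 lower calls, and the mitochondrial mRNA scale gave 116 lower ones. The log2 difference in the ratio of MT-ND6 to other mRNAs was -0.0819 with the median over genes and -0.0303 without overlapping and highest genes. That in the rRNA to mRNA ratio was 0.226 without those genes, and between -0.14 and 0.106 over the libraries left out, with 0.0338 without shCtrl library 2. The genes whose sign turned were uncalled on the deposited scale. On the mitochondrial mRNA scale their log2 changes were MT-RNR1 0.297, MT-TA 0.0531, MT-TN 0.229, MT-CO1 0.333, MT-TS1 0.0140, MT-CO2 0.0961, MT-TG 0.334, MT-ND3 0.0397, MT-ND4L 0.0429, MT-ND4 0.0734, MT-ND5 0.0292, MT-ND6 0.0416 and MT-CYB 0.0926. On the TPM scale they were MT-RNR1 0.294, MT-TA 0.0495, MT-TN 0.225, MT-CO1 0.33, MT-TS1 0.0104, MT-CO2 0.0925, MT-TG 0.331, MT-ND3 0.0362, MT-ND4L 0.0393, MT-ND4 0.0698, MT-ND5 0.0257, MT-ND6 0.0381 and MT-CYB 0.089. Under quantile normalization they were MT-TN 0.203, MT-CO1 0.0542, MT-TS1 0.157, MT-ATP8 0.199, MT-TG 0.00439 and MT-TE 0.576. Over the libraries left out, MT-RNR1 ranged from -0.57 to 0.117, MT-TG from -0.93 to 0.66, MT-TR from -0.024 to 0.31 and MT-TP from -0.11 to 0.19. The shift under both rescalings follows from their construction; elsewhere the cause was not tested. The precision of tRNA rows is limited by depth: 6 of 22 genes had fewer than 30 fragments in some library.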
